A study of Mus musculus with 20 samples.

Results

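Complement and coagulation proteins of the liver were followed as 39 genes, which are the genes of the deposited expression table whose symbol is on a fixed list of secreted complement, clotting and fibrinolysis factors. The table held 45306 genes, of which 15616 had enough counts to be tested, and all 39 members were among those tested. Their lowest count in any mouse was 434, so the filter on low counts removed none of them. The rule reads gene symbols alone.

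Hepatocytes make most of the complement and clotting proteins of plasma. In complement, recognition by C1 or by mannose-binding lectins activates proteases that build the enzymes cleaving C3, and C5 to C9 then form a pore in the target membrane. In clotting, contact factors and tissue factor start a chain of proteases that ends with thrombin cutting fibrinogen to fibrin, while antithrombin, protein C and plasmin limit or dissolve the clot. Fibrinogen, C3, C4 and several others are acute-phase proteins, whose transcription in hepatocytes is raised by cytokines such as interleukin-6.

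Livers of 20 mice on a C57BL/6 background were sequenced, with 1 library per mouse and 5 mice per group. Control mice (mice 1 to 5) were wild type and kept at room temperature, CE mice (6 to 10) were wild type and spent 3 h per day at 4 °C for 3 weeks, Sirt2-/- mice (11 to 15) were knockout mice at room temperature, and Sirt2-/-/CE mice (16 to 20) were knockout mice with the same cold exposure. The mice were 5 weeks old at the start, and the methods state that strain and sex were the same within an experiment. The knockout was made by injecting a ribonucleoprotein against exons 5 to 7 of Sirt2 into fertilized eggs, so the gene was lost in the whole body and not only in hepatocytes. Sirt2 encodes an NAD-dependent deacetylase, and the comparisons ask how its loss, the cold, or both together change the liver.

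The 3 fibrinogen genes lie side by side within 42.1 kb of chromosome 3, and their 300-base start regions (250 bases before and 50 after the RefSeq start, GRCm38.p6) are shown because their transcripts varied together from mouse to mouse. Fgg covers chr3:83007474-83007773 (plus strand), Fga chr3:83025903-83026202 (plus strand) and Fgb chr3:83049814-83050113 (minus strand). Each is written 5′ to 3′ on the strand of its gene, and capitals mark the letters CTGGGAA (the core of the interleukin-6 response element), TTGCNNAA (a C/EBP site) and GTTAAT (the core of an HNF1 site), searched on both strands:
Fgg: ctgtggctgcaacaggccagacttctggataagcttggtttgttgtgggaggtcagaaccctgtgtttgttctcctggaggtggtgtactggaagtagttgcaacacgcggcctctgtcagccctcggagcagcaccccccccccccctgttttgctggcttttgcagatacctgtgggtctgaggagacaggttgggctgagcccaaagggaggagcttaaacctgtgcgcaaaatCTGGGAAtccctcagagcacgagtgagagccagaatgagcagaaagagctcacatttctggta
Fga: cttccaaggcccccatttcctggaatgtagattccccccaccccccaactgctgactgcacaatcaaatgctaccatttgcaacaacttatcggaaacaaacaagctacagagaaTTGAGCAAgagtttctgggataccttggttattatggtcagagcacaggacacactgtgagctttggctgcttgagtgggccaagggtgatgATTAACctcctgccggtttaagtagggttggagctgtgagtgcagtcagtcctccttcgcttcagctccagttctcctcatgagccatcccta
Fgb: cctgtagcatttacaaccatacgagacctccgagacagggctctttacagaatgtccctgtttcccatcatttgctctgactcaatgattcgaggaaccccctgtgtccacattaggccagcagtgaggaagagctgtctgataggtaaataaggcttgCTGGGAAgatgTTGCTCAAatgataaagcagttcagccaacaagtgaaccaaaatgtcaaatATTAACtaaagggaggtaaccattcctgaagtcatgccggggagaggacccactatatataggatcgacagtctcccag

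Fgg held CTGGGAA 13 bases before its start, and Fgb held it 91 bases before its start, next to a C/EBP site 80 bases before. Fga held no CTGGGAA in this window and had a C/EBP site 135 bases before its start on the other strand. GTTAAT was found on the other strand of Fga and Fgb, 43 and 29 bases before the start. RefSeq start regions were at hand for 30 of the 39 members, and C2, C4b, Cfb, Cfi, Kng1, Masp1, Plg, Proc and Serping1 were not searched. CTGGGAA was present in 7 of the 30 (23.3%) against 11.1% of 32851 start regions of all genes, in C1ra, C6, F9, Fgb, Fgg, Masp2 and Vtn. TTGCNNAA was present in 10 of the 30 (33.3%) against 10.8%, and GTTAAT in 10 of the 30 (33.3%) against 7.1%. CACGTG, the E-box bound by the clock proteins, was found in 0 of the 30 and in 7.15% of all start regions, and the D-box TTATGTAA in 0 and in 0.938%. A member counted if any of its start regions held the letters, while the shares of all genes are per single start region, so the shares are not fully alike. These are matches of letters and say nothing of binding.

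Libraries held between 35499796 and 53917339 counts, and the 39 members took 3.02% to 5.53% of them. All 8 hepatocyte markers were present in each library, with a summed level of 87190 to 180000 CPM (counts scaled to the depth of the library with TMM factors). Sirt2 reads ranged from 40.2 to 56.2 CPM in the wild-type mice and from 16.9 to 27.5 CPM in the knockout mice without overlap, a log2 fold change of -0.94 at room temperature (SE 0.15, edgeR adjusted p = 0.0145) and -1.11 in the cold (adjusted p = 0.0043). These counts cover the whole gene, exons outside the targeted part included. Mice 14 and 15 (Sirt2-/-) stood apart by a clock score (log2 levels of the output genes Ciart, Dbp, Nr1d2, Per3 and Tef, less those of Arntl, Clock and Npas2) of -5.72 and -6.48, with -4.52 and -4.69 in mice 9 (CE) and 19 (Sirt2-/-/CE) and -0.81 to 3.36 in the others. Control mice had 1.33 to 3.36 and Sirt2-/-/CE mice -4.69 to 0.87. The score thus differed between groups, and a fit with it as a covariate cannot fully separate it from the group. Mouse 20 (Sirt2-/-/CE) had a female-type liver gene score of 6.86 and a male-type score of -4.13, although Y-linked genes were read in all 20 mice.

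Levels were first compared per gene length, on the authors' FPKM scale, as means of the 20 mice. Fgg (1766 FPKM), Fga (1472), C3 (1294) and Vtn (1233), the vitronectin gene, were the most abundant, and 7 members were among the 100 genes of highest mean FPKM in the liver. Fgb (967), Kng1 (819) and F2 (793), which encode the fibrinogen beta chain, kininogen and prothrombin, were the others of these 7. Among the clotting proteases F2 stood far above F10 (229 FPKM), F9 (64.6), F7 (47.1) and F11 (28.6). The lowest members were Masp1 (23.6 FPKM), a lectin pathway protease, and Pros1 (17.8), the protein S gene.

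**Figure D1:**
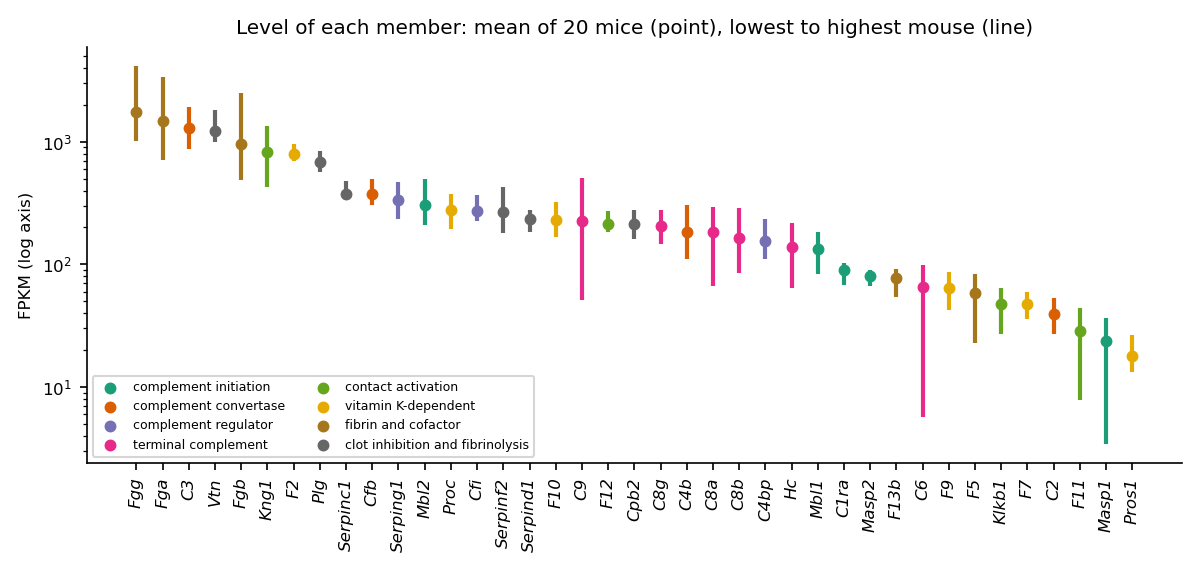
Level of the 39 members on a logarithmic FPKM axis, with a point for the mean of the 20 mice and a line from the lowest to the highest mouse, coloured by role. Fgg (1766 FPKM) was highest and Pros1 (17.8 FPKM) lowest, and the longest lines belong to C6, Masp1 and C9.

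The members varied between mice of a group about as other abundant genes did. The SD of log2 CPM within groups had a median of 0.254 over the members and of 0.289 over the 3943 genes averaging 10 FPKM or more, and 21 of the 39 lay at or below the latter. Antithrombin (Serpinc1) at 0.15, heparin cofactor II (Serpind1) at 0.16 and C1ra at 0.16 were the steadiest. C6 (0.92), Masp1 (0.90), C9 (0.66) and Fga (0.64) were the most variable, and C6 differed 19.2-fold between its highest and lowest mouse.

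A few mice carried most of the extremes. Mouse 15 had the lowest value of the 20 mice for 20 of the 39 members, and mouse 14 for 5. Highest values were found in Control mouse 3 for 8 members and in CE mice 8 and 9 and Sirt2-/-/CE mouse 16 for 6 each. Mouse 16 also had the lowest share of counts in the members (3.02%), and mouse 3 the highest (5.53%).

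**Figure D2:**
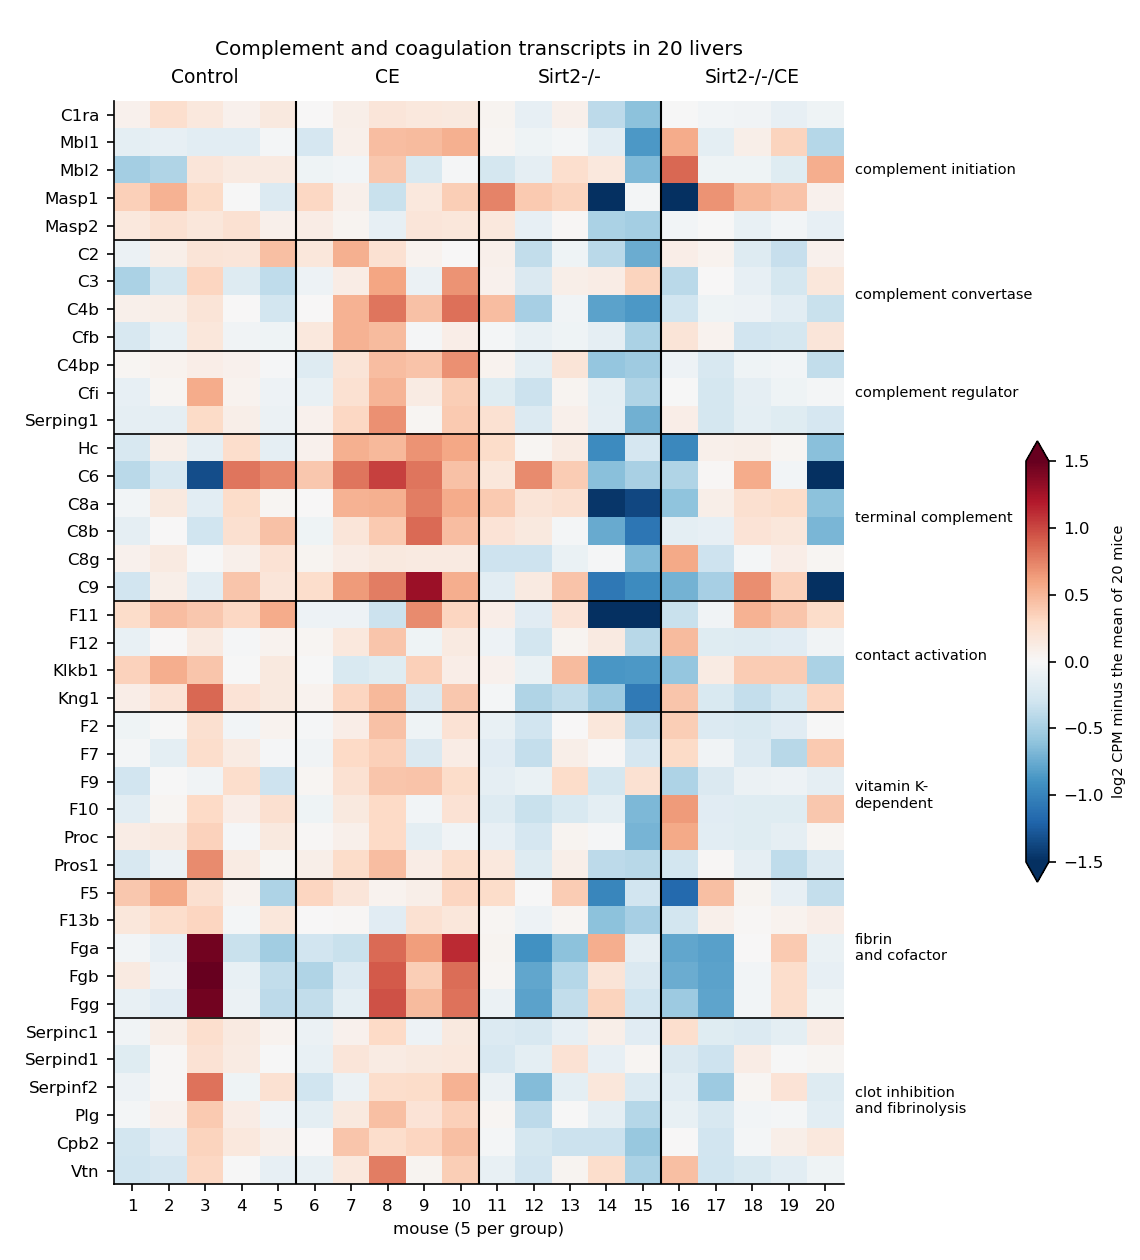
Log2 CPM of each member minus its mean over the 20 mice, with mice in columns by group and members in rows by role; red is above and blue below that mean, and colours stop at 1.5. The fibrinogen chains of mouse 3, and C8a and F11 of mice 14 and 15, stand out, and mouse 20 is low in C6 and C9.

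Loss of Sirt2 at room temperature (Sirt2-/- against Control) went with lower estimates for 36 of the 39 members (48.3% of all genes), with a median log2 fold change of -0.27 against 0.02 over all genes tested, and lower estimates were found for 27 members (median -0.14) with scaling by library size alone, which put the median of all genes at 0.16. No member passed the test: 0 of 39 were called by edgeR at an adjusted p of 0.05, where 0.89% of all genes were. At an unadjusted p under 0.05 there were 11 members, all lower, against 14.9% of all genes in either direction and 6.78% lower. Those 11 were Kng1, C2, F13b, Masp2, C1ra, F11, C8g, F10, Cpb2, Cfi and Proc. DESeq2 called 1 of the 39 (Kng1) where it called 3.85% of all genes, with 12 at an unadjusted p under 0.05 (16.3% of all genes). Limma voom with sample weights called 2 (C8g and Kng1) where it called 5.8% of all genes, with 14 (23.1%), so neither tool called a larger share of the members than of all genes. Kng1, F11 and C8g did not overlap between the groups and were lower, which 2.16% of all genes were. Mice 14 and 15 weighed on these values. Without both, 27 of the 39 had lower estimates, the median was -0.13 and 3 had an unadjusted p under 0.05 (8.12% of all genes). Without mouse 15 alone there were 6, all lower (10.3% of all genes). Library size scaling gave 5, 4 of them lower (19.5% of all genes), and FPKM gave 4, 3 of them lower (19.7%). With the clock score as a covariate, 29 had lower estimates (median -0.16) and 2 had an unadjusted p under 0.05 (7.27% of all genes). The share of members under 0.05 in either direction was above that of all genes without mouse 15 alone, and in none of the other 4 settings. These shares of all genes count both directions. With library size scaling and with FPKM, 33.9% and 34.5% of all genes had lower estimates.

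Loss of Sirt2 in the cold (Sirt2-/-/CE against CE) gave lower estimates for 34 of the 39 (47.4% of all genes), with a median of -0.28 against 0.02 over all genes, and for 30 (median -0.18) with scaling by library size alone, where the median of all genes was 0.11. EdgeR called 0 of the 39, as against 0.0128% of all genes, and DESeq2 and voom called 0, against 0.18% and 0.0128% of all genes. At an unadjusted p under 0.05 edgeR had 10 members, all lower (2.2% of all genes were), with 13 by DESeq2 and 16 by voom (7.09% and 7.97% of all genes in either direction). They were C4b, F9, Hc, C4bp, Serping1, Pros1, C9, Plg, Cfi and Cpb2. C4b, F9, Pros1 and C1ra did not overlap between the groups and were lower, against 0.41% of all genes. Leaving out CE mouse 8 reduced the 10 to 6, leaving out CE mouse 6 raised them to 16, and leaving out mice 14 and 15, which are in neither group but enter the estimate of spread, also gave 16 (6.97% of all genes). Library size scaling gave 6 (7.91%).

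Over both treatments, the knockout estimate was lower for 38 of the 39 members (46.4% of all genes), with Mbl2 the exception, the median was -0.29 against 0.02, and 36 were lower (median -0.17) with scaling by library size alone, under which Masp1 and C3 turned to higher. EdgeR called 0 of them, against 0.186% of all genes. Members with an unadjusted p under 0.05 numbered 18, all lower, where 5.82% of all genes were lower at that level. DESeq2 called 2 (C4b and Plg) where it called 1.94% of all genes, and voom called 2 others (C8g and Kng1) where it called 1.68%, each with 21 at an unadjusted p under 0.05 (15.2% and 18.9% of all genes). The 18 became 8 with library size scaling (20.4% of all genes in either direction) and 9 with FPKM (19.2%), all of them lower. In these settings 28.9% and 31.4% of all genes had lower estimates, and the share of all genes lower at that level is not given. The 18 became 15 without mice 14 and 15 (9.04%) and 11 with the clock score as a covariate (7.86%). Library size scaling moved the estimate to -0.19 for Plg, -0.20 for Cpb2, -0.20 for Cfi and -0.23 for Pros1. None of the members was free of overlap between all 10 wild-type and all 10 knockout mice, against 0.0256% of all genes. In bulk tissue, a lower share of hepatocytes and less RNA of a gene per hepatocyte cannot be told apart.

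Cold in wild-type mice (CE against Control) gave higher estimates for 27 of the 39 (49% of all genes), with a median of 0.11 against -0.01 over all genes, and for 25 with scaling by library size alone. EdgeR called 0 members, against 0.0064% of all genes, and DESeq2 and voom called 0, against 1.03% and 3.46% of all genes. At an unadjusted p under 0.05 edgeR had 6, all higher (5.5% of all genes were), with 6 by DESeq2 and 10 by voom (11.7% and 20.8% of all genes in either direction), and 0 members were free of overlap, against 3.04% of all genes. These 6 were F9, C4b, C3, Hc, Cfb and Mbl1. They numbered 1 without Control mouse 1 or without Control mouse 5, 2 without CE mouse 8 or without CE mouse 10, 3 without Control mouse 2, and 9 without Control mouse 3 or without mice 14 and 15. With the clock score as a covariate 34 of the 39 had higher estimates (median 0.19) and 8 had an unadjusted p under 0.05 (10.8% of all genes).

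Cold in knockout mice (Sirt2-/-/CE against Sirt2-/-) gave higher estimates for 29 members (50.9% of all genes) with a median of 0.09, and for 23 with scaling by library size alone. That direction rested on few mice: without mouse 15 there were 20 higher and 19 lower (median 0.00), and without mice 9, 14, 15 and 19 there were 19 higher and 20 lower (median -0.03). EdgeR, DESeq2 and voom called 0 of the 39, against 0%, 0.0449% and 0% of all genes. C8g, F10, Kng1 and Cpb2 had an unadjusted p under 0.05 and were higher, 4 members where 3.96% of all genes were, with 4 by DESeq2 and 2 by voom (8.13% and 6.44% of all genes in either direction). The 4 became 0 when these groups were fitted alone, 1 without mouse 15 or without mouse 16, and 2 without mouse 12 or without mouse 14. No member was free of overlap, against 0.743% of all genes.

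Over both genotypes the cold estimate was higher for 34 of the 39 (51.3% of all genes; median 0.12, and 29 higher with library size scaling), with 0 called by edgeR, DESeq2 and voom, against 0%, 0.487% and 0.307% of all genes. Each of the 3 tools had 3 members at an unadjusted p under 0.05, where edgeR had 9.48% of all genes in either direction and 4.62% higher, DESeq2 10.6% and voom 14.1%. Mbl1, Cfb and Cpb2 were these 3, all higher. Leaving out 1 mouse in edgeR gave 2 to 5 members, with 5 without mouse 17 (9.24% of all genes). With the clock score as a covariate 37 were higher and 8 had an unadjusted p under 0.05 (12.2% of all genes), and without mice 9, 14, 15 and 19 these were 26 and 1 (10.2%). The interaction, which asks whether cold acted differently in knockout mice, had 22 estimates below 0 (49.8% of all genes) and 17 above (median -0.03). EdgeR called 0 members and 0% of all genes, and 2 members, F9 and C3, had an unadjusted p under 0.05 (8.34% of all genes), with 2 by DESeq2 (9.37%) and 9 by voom (13.3%). DESeq2 and voom called 0 members, against 0.263% and 0% of all genes. That count was 1 without CE mouse 10, 4 without mouse 11, 13, 14, 16, 17 or 19, 5 without mouse 18 or with the clock score as a covariate (5.76% of all genes), and 6 without mice 14 and 15 (6.52%).

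**Figure D3:**
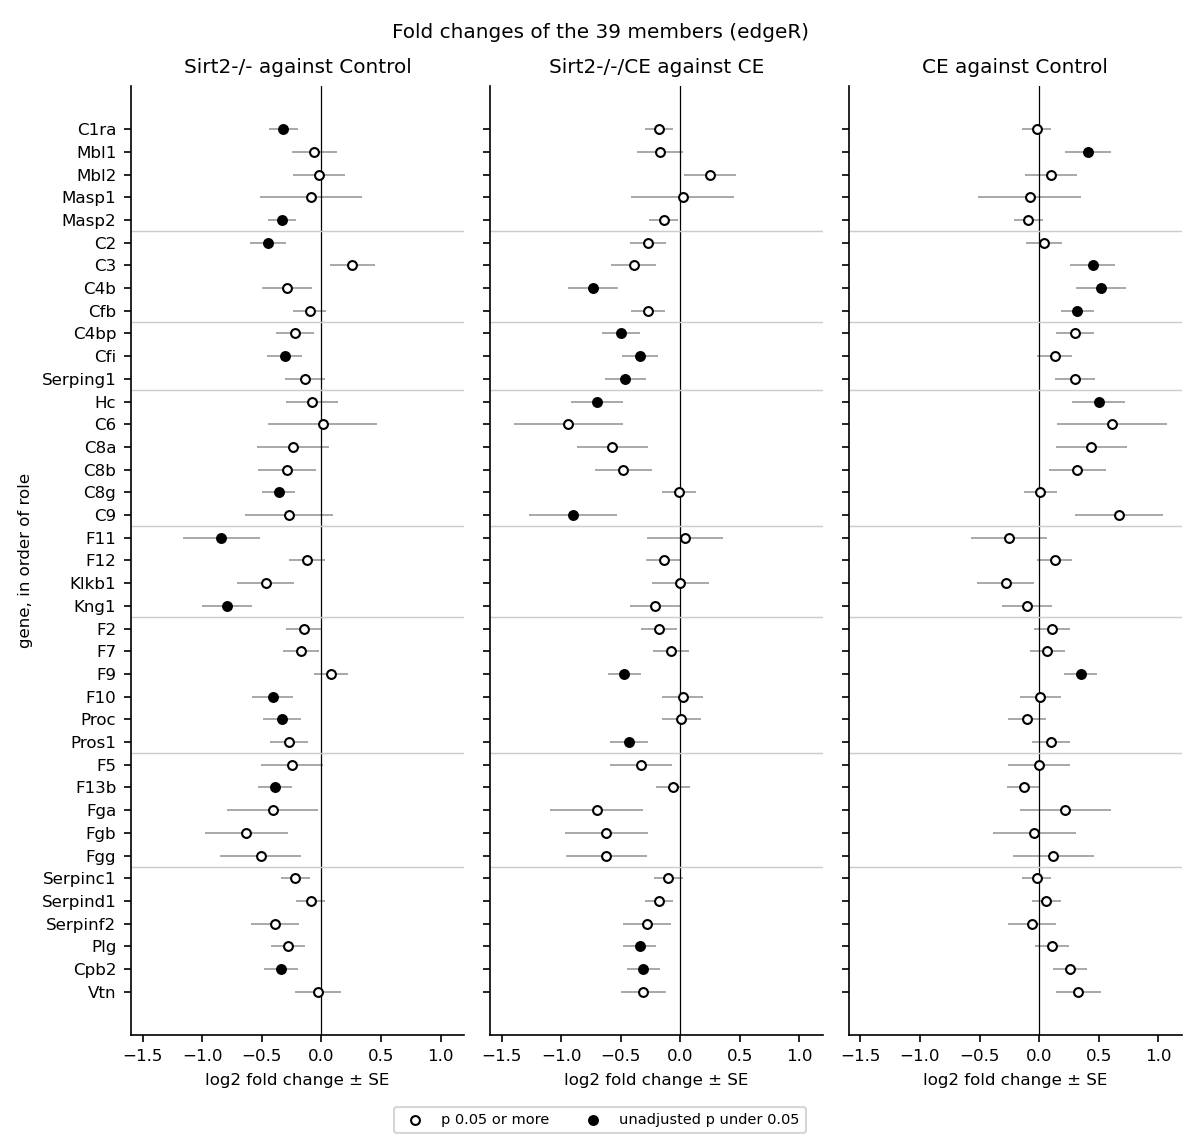
Log2 fold change of each member with its SE in 3 comparisons, in order of role; filled points have an unadjusted edgeR p under 0.05. Most points lie left of 0 in both knockout comparisons (36 and 34 of 39), and no member passed an adjusted p of 0.05.

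Recognition and initiation of complement had small median differences, -0.09 in Sirt2-/- against Control, -0.14 in Sirt2-/-/CE against CE and -0.02 in CE against Control. Of its 5 genes, 1 (Mbl1) had an unadjusted p under 0.05 in CE against Control and 2 (C1ra and Masp2) had one in Sirt2-/- against Control, and none in Sirt2-/-/CE against CE. Mbl2 was at 241, 252, 389, 379 and 377 CPM in Control mice 1 to 5, 329.5, 334, 457, 294 and 342 in CE mice 6 to 10, 288, 314, 411, 384 and 217 in Sirt2-/- mice 11 to 15 and 628, 328, 328, 304 and 502 in Sirt2-/-/CE mice 16 to 20. Mbl2, a mannose-binding lectin and the most abundant member of this role, overlapped in every pair of groups, and mouse 16 was the highest of the 20. C1ra was at 272, 308, 288, 272 and 288 CPM in Control mice 1 to 5, 261, 276, 294, 290.1 and 287 in CE mice 6 to 10, 267, 238, 274, 197 and 169.6 in Sirt2-/- mice 11 to 15 and 257, 252, 249.6, 239 and 247 in Sirt2-/-/CE mice 16 to 20. C1ra, the C1r protease of the classical pathway, was -0.32 (log2, SE 0.12, adjusted p = 0.201) in Sirt2-/- against Control, where mice 14 and 15 were the lowest and without them it was -0.13. All 10 knockout mice lay below the mean of the wild-type mice. Its groups did not overlap in the cold, although the difference there was small (-0.18 (log2, SE 0.12, adjusted p = 0.931)). C1rb, a near-identical copy, took 4.44% to 11.4% of the counts of the pair. Masp2 shares 1817 of its 3307 exon bases with Tardbp on the opposite strand, so its count may hold reads of Tardbp. Masp1 lay outside the range of the other mice (47.9 to 101 CPM) in mouse 14, at 13.5 CPM, and in mouse 16, at 10.8 CPM.

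The convertase genes, which encode C3 and the proteins that assemble into the enzymes cleaving it, had higher estimates in CE than in Control for 4 of 4, with a median log2 fold change of 0.38 (0.36 with library size scaling) and 3 of them (C3, C4b and Cfb) at an unadjusted p under 0.05. C3 was at 4895, 5652, 8535, 5943 and 5211 CPM in Control mice 1 to 5, 6460, 7369, 10260, 6388 and 10840 in CE mice 6 to 10, 7110, 5850, 7238, 7342 and 8549 in Sirt2-/- mice 11 to 15 and 5158, 6854, 6257, 5678 and 7647 in Sirt2-/-/CE mice 16 to 20. C3 was 0.45 (log2, SE 0.19, adjusted p = 0.392) in CE against Control, with 5 of 5 CE mice above the Control mean and overlapping groups. In knockout mice the cold estimate was -0.19 (log2, SE 0.19, adjusted p = 0.904), and the difference between these responses was -0.64 (log2, SE 0.27, adjusted p = 0.528).

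C4b was at 1052, 1058, 1139, 996 and 823 CPM in Control mice 1 to 5, 1000, 1423, 1735, 1344 and 1767 in CE mice 6 to 10, 1369, 701, 955, 571 and 548 in Sirt2-/- mice 11 to 15 and 808, 951, 940.2, 890.4 and 786 in Sirt2-/-/CE mice 16 to 20. The C4b gene (chr17:34728380-34743882, minus strand, GRCm38) encodes complement C4, the substrate of C1s and Masp2. CE mice 7 to 10 were above all other mice but mouse 11, which exceeded CE mouse 9. C4b was 0.52 (log2, SE 0.21, adjusted p = 0.38) in CE against Control and -0.73 (log2, SE 0.21, adjusted p = 0.458) in Sirt2-/-/CE against CE, where the groups did not overlap. Over both treatments it was -0.51 (log2, SE 0.15, adjusted p = 0.153), with an adjusted p of 0.0471 by DESeq2 and of up to 0.575 over 30 alternatives. Its near-identical copy C4a took 1.21% to 6.14% of the counts of the pair.

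C2 was at 98.2, 111, 119, 118 and 142 CPM in Control mice 1 to 5, 117, 151, 122, 108 and 105 in CE mice 6 to 10, 109, 80.5, 99.5, 78.9 and 61.9 in Sirt2-/- mice 11 to 15 and 111, 108, 90.6, 81.9 and 109 in Sirt2-/-/CE mice 16 to 20. C2, the protease part of the classical convertase, was -0.36 (log2, SE 0.11, adjusted p = 0.159) for the knockout over both treatments, and 10 of 10 knockout mice were below the mean of the wild-type mice, with overlap in both pairs of groups. At room temperature it was -0.45 (log2, SE 0.15, adjusted p = 0.156), with mouse 15 the lowest and -0.28 without mice 14 and 15, and in the cold -0.27 (log2, SE 0.15, adjusted p = 0.888), or -0.17 without CE mouse 7. Cfb, factor B of the alternative pathway, lies beside C2 on chromosome 17 and was 0.32 (log2, SE 0.14, adjusted p = 0.439) in CE against Control. Another annotated gene, Gm20547, overlaps both.

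Complement regulators C4bp, Cfi and Serping1 all had lower estimates in Sirt2-/-/CE than in CE, 3 of 3 at an unadjusted p under 0.05, with a median of -0.46 and -0.36 with library size scaling, where 2 of the 3 remained under 0.05. C4bp was at 493, 500.2, 516, 504 and 474 CPM in Control mice 1 to 5, 420.1, 549, 664, 649 and 773 in CE mice 6 to 10, 498, 434, 549.7, 322 and 333 in Sirt2-/- mice 11 to 15 and 458, 408, 462, 468 and 372 in Sirt2-/-/CE mice 16 to 20. C4bp, which binds C4b and speeds its decay, was -0.50 (log2, SE 0.16, adjusted p = 0.541) in this comparison. Its groups overlapped through CE mouse 6, the lowest of the CE mice. Cfi was at 538, 599.5, 859, 608 and 555 CPM in Control mice 1 to 5, 540.4, 686, 835, 639.8 and 754 in CE mice 6 to 10, 514, 468, 603, 531 and 427 in Sirt2-/- mice 11 to 15 and 584, 487, 534, 559.9 and 574 in Sirt2-/-/CE mice 16 to 20. Cfi, the protease that inactivates C3b and C4b, was -0.32 (log2, SE 0.10, adjusted p = 0.181) over both treatments, with 10 of 10 knockout mice below the wild-type mean and Control mouse 3 the highest of all 20. Serping1 was at 557, 559, 748, 653 and 575 CPM in Control mice 1 to 5, 638, 758, 987, 623 and 805 in CE mice 6 to 10, 715, 529.7, 644, 556 and 371 in Sirt2-/- mice 11 to 15 and 657, 512, 554, 542 and 515 in Sirt2-/-/CE mice 16 to 20. Serping1, the C1 inhibitor that also blocks kallikrein and factor XIIa, was -0.46 (log2, SE 0.17, adjusted p = 0.617) in the cold, and mouse 15 was the lowest.

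Terminal complement had the lowest median of the 4 complement roles in Sirt2-/-/CE against CE. Its 6 genes all had lower estimates in Sirt2-/-/CE than in CE, with a median of -0.63, and C8g turned to higher with library size scaling (5 of 6 lower, median -0.52). In CE against Control all 6 were higher with a median of 0.47, again with C8g turning (0.45). Only Hc reached an unadjusted p under 0.05 in the latter, and Hc and C9 in the former. In Sirt2-/- against Control, 5 of 6 had lower estimates (median -0.26), and without mice 14 and 15 only 1 had (median 0.13).

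Hc was at 625, 786, 669.9, 881 and 674 CPM in Control mice 1 to 5, 769.5, 1064, 1029, 1176 and 1098 in CE mice 6 to 10, 889, 749.6, 802, 385 and 618 in Sirt2-/- mice 11 to 15 and 376, 776, 782, 753 and 478 in Sirt2-/-/CE mice 16 to 20. Hc, the mouse gene of complement C5, was highest in CE mice 7 to 10 and lowest in mice 16 and 14. It was 0.50 (log2, SE 0.22, adjusted p = 0.429) in CE against Control and -0.70 (log2, SE 0.22, adjusted p = 0.51) in Sirt2-/-/CE against CE, and the groups overlapped in both. C9 was at 358, 462, 389, 579 and 493 CPM in Control mice 1 to 5, 524, 677, 742, 1057 and 636 in CE mice 6 to 10, 392, 478, 584, 207 and 226 in Sirt2-/- mice 11 to 15 and 266, 309, 707, 556 and 113 in Sirt2-/-/CE mice 16 to 20. C9, whose protein polymerizes into the pore, was -0.90 (log2, SE 0.37, adjusted p = 0.699) in Sirt2-/-/CE against CE, and without mouse 20 it was -0.67 (adjusted p = 1.00).

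C6, which joins C5b at the start of pore assembly, stood at 17.6 CPM in mouse 20 and at 66.5 CPM or more in the other 19 mice, with Control mouse 3 the second lowest. These were also the mice with the highest scores of female-type liver genes, 6.86 and 4.09, against -3.06 to 1.63 in the others, and the part of this in the C6 and C9 levels was not tested. The score uses the 3 of 6 listed genes that could be tested, and the summed level of all 6 was 0.403 to 184 CPM in Control, 0.905 to 29.8 in CE, 1.44 to 14.6 in Sirt2-/- and 4.08 to 998 in Sirt2-/-/CE. C8a and C8b, neighbours 11.1 kb apart on chromosome 4 that encode chains of C8, were both low in mice 14 and 15: C8a was 234 and 251 CPM there and 420 to 1095 CPM elsewhere. C8g encodes the third chain and lies elsewhere. It was lower without overlap in Sirt2-/- (136 to 212 CPM) than in Control (213 to 248.8 CPM), -0.36 (log2, SE 0.14, adjusted p = 0.218).

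**Figure D4:**
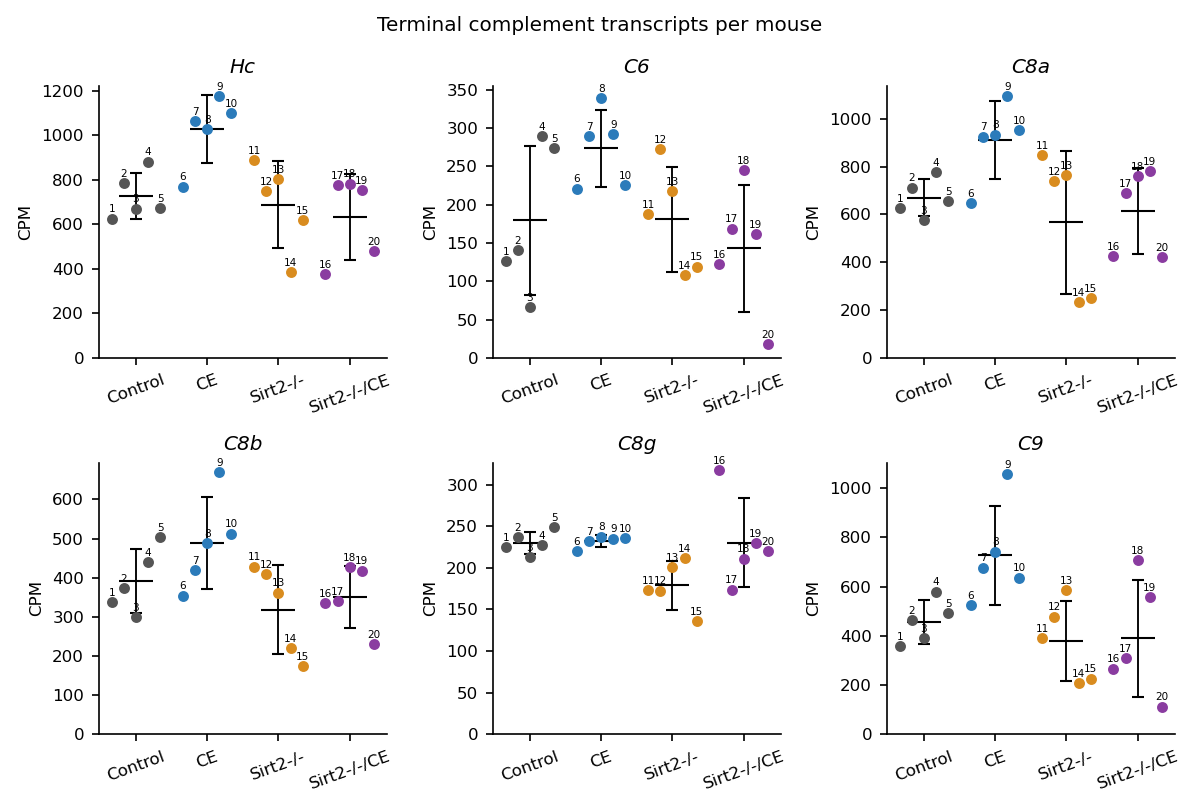
Terminal complement transcripts in CPM for each mouse (numbered points), with the mean and SD of the 5 mice of a group in black. C9 is lowest in mice 20, 14 and 15, and mouse 20 had 17.6 CPM of C6.

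Contact activation genes, whose products start clotting on negatively charged surfaces and release bradykinin, had the lowest median of the 8 roles in Sirt2-/- against Control, -0.63 with 4 of 4 lower, and -0.49 with 3 of 4 lower with library size scaling, where F12 turned to higher. Kng1 and F11 were at an unadjusted p under 0.05. Without mice 14 and 15 the median was -0.24.

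Kng1 was at 1796, 1934, 3036, 1936 and 1850 CPM in Control mice 1 to 5, 1737, 2099, 2340, 1437 and 2217 in CE mice 6 to 10, 1637, 1230, 1296, 1154 and 804 in Sirt2-/- mice 11 to 15 and 2239, 1436, 1311, 1400 and 2105 in Sirt2-/-/CE mice 16 to 20. Kng1 (chr16:23057865-23082078, plus strand, GRCm38), which encodes kininogen, the precursor of bradykinin and a cofactor of contact activation, was lower in each Sirt2-/- mouse than in any Control mouse. The log2 fold change was -0.79 (SE 0.21, interval of 2 SE -1.21 to -0.36, unadjusted p = 0.00135, edgeR adjusted p = 0.0729). By DESeq2 the adjusted p was 0.014, and by voom 0.0294, while with the clock score as a covariate in edgeR the estimate was -0.47 (adjusted p = 0.645). Over 31 alternatives the estimate ran from -0.91 to -0.47 and the adjusted p from 0.014 to 0.645. Without Control mouse 3 the estimate was -0.63 (adjusted p = 0.212), without mouse 15 it was -0.67 (adjusted p = 0.221), and without mice 14 and 15 together -0.60 (adjusted p = 0.461). Knockout mice in the cold overlapped with every group, at -0.21 (log2, SE 0.21, adjusted p = 0.949) against CE and 0.47 (log2, SE 0.21, adjusted p = 0.667) against Sirt2-/-. Kng2, a near-identical copy that took 9.82% to 15.4% of the counts of the pair, was -0.68 in Sirt2-/- against Control (unadjusted p = 0.00583, adjusted p = 0.138 by edgeR).

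F11, factor XI, was 75.7 to 91.4 CPM in Control mice and 16.9 to 71.6 CPM in Sirt2-/- mice, with 16.9 and 19.9 in mice 14 and 15. The log2 fold change was -0.84 (log2, SE 0.32, adjusted p = 0.212), and -0.35 (adjusted p = 0.749) without these mice. F12, factor XII, was -0.12 (log2, SE 0.15, adjusted p = 0.752) in Sirt2-/- against Control. The gene listed as Klkb1, prekallikrein, carries an identifier that the GENCODE M21 annotation assigns to Gm45753, a gene overlapping both Klkb1 and Cyp4v3, so its counts may hold reads of both. It was -0.47 (log2, SE 0.24, adjusted p = 0.377), or -0.13 without mice 14 and 15.

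The vitamin K-dependent proteins, proteases and cofactors that bind membranes through carboxylated glutamates, had median differences of -0.22 (Sirt2-/- against Control), -0.13 (Sirt2-/-/CE against CE) and 0.09 (CE against Control), and -0.07, -0.04 and 0.06 with library size scaling. F2 was at 1559, 1634, 1931, 1587 and 1700 CPM in Control mice 1 to 5, 1618, 1760, 2211, 1567 and 1902 in CE mice 6 to 10, 1515, 1345, 1640, 1834 and 1252 in Sirt2-/- mice 11 to 15 and 2109, 1423, 1403, 1453 and 1626 in Sirt2-/-/CE mice 16 to 20. F2, prothrombin, overlapped in each pair of groups, and its fold change stayed between -0.18 and 0.11 on the log2 scale in the 4 comparisons of pairs.

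F9 was at 149, 181, 176, 218 and 146 CPM in Control mice 1 to 5, 186, 214, 242, 246 and 220 in CE mice 6 to 10, 166, 169.5, 220.2, 152 and 214 in Sirt2-/- mice 11 to 15 and 132, 157, 171, 172 and 166 in Sirt2-/-/CE mice 16 to 20. F9 (chrX:59999464-60030759, plus strand, GRCm38), factor IX, was above the Control mean in 5 of 5 CE mice and below the Sirt2-/- mean in 5 of 5 Sirt2-/-/CE mice. It was 0.35 (log2, SE 0.14, adjusted p = 0.361) in CE against Control, -0.21 (log2, SE 0.14, adjusted p = 0.804) in Sirt2-/-/CE against Sirt2-/- and -0.47 (log2, SE 0.14, adjusted p = 0.458) in Sirt2-/-/CE against CE, where the groups did not overlap. The test of the difference between the cold responses gave -0.55 (log2, SE 0.20, adjusted p = 0.457), with an unadjusted p of 0.0102.

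Pros1 was at 51.3, 57.2, 99.4, 66.0 and 61.8 CPM in Control mice 1 to 5, 64.8, 73.3, 83.5, 65.4 and 72.9 in CE mice 6 to 10, 67.9, 53.3, 64.5, 46.4 and 45.6 in Sirt2-/- mice 11 to 15 and 50.2, 61.6, 55.5, 46.6 and 52.9 in Sirt2-/-/CE mice 16 to 20. Pros1, the protein S cofactor of activated protein C, was -0.35 (log2, SE 0.11, adjusted p = 0.185) for the knockout over both treatments, with 10 of 10 knockout mice below the wild-type mean. In the cold the groups did not overlap (-0.43 (log2, SE 0.16, adjusted p = 0.648)). Mouse 3 was again the highest. F10, factor X, and Proc, protein C, were -0.41 (log2, SE 0.17, adjusted p = 0.234) and -0.33 (log2, SE 0.16, adjusted p = 0.334) in Sirt2-/- against Control, or -0.27 and -0.20 with library size scaling, and mouse 16 had the most of both, 675 CPM. F7, factor VII, lies 1.5 kb from F10 on chromosome 8 and was -0.17 (log2, SE 0.15, adjusted p = 0.668).

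Fibrinogen differed widely between mice of a group. Fga was at 2869, 2714, 8011, 2343 and 2048 CPM in Control mice 1 to 5, 2412, 2340, 5299, 4543 and 6388 in CE mice 6 to 10, 3032, 1571, 1915, 4297 and 2676 in Sirt2-/- mice 11 to 15 and 1714, 1672, 2952, 3852 and 2741 in Sirt2-/-/CE mice 16 to 20. Fgb was at 3893, 3368, 10720, 3281 and 2762 CPM in Control mice 1 to 5, 2601, 3084, 6714, 4605 and 6358 in CE mice 6 to 10, 3644, 2065, 2655, 4065 and 3072 in Sirt2-/- mice 11 to 15 and 2130, 2047, 3466, 4260 and 3274 in Sirt2-/-/CE mice 16 to 20. Fgg was at 2710, 2612, 7989, 2763 and 2232 CPM in Control mice 1 to 5, 2272, 2655, 5686, 4096 and 5158 in CE mice 6 to 10, 2761, 1691, 2281, 3691 and 2392 in Sirt2-/- mice 11 to 15 and 2013, 1702, 2847, 3521 and 2812 in Sirt2-/-/CE mice 16 to 20. Control mouse 3 had the highest level of each chain, CE mice 8 to 10 followed, and mice 12, 16 and 17 had the lowest. The chains differed 5.10-fold (Fga), 5.24-fold (Fgb) and 4.73-fold (Fgg) between the highest and the lowest mouse, while their ratio within a mouse, per gene length, stayed between 1.29 and 1.92 for Fga to Fgb and between 1.56 and 2.11 for Fgg to Fgb.

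For the knockout over both treatments, Fga was -0.56 (log2, SE 0.27, adjusted p = 0.372), Fgb -0.63 (log2, SE 0.25, adjusted p = 0.27) and Fgg -0.57 (log2, SE 0.24, adjusted p = 0.297), and Fgb and Fgg had an unadjusted p under 0.05. Without Control mouse 3, Fga was -0.30, Fgb was -0.37 (adjusted p = 0.472) and Fgg -0.32 (adjusted p = 0.528). In Sirt2-/-/CE against CE the 3 chains were between -0.70 and -0.62, with edgeR adjusted p-values of 0.882, 0.888 and 0.88. CE against Control gave 0.22 (log2, SE 0.38, adjusted p = 0.905) for Fga, with intervals of 2 SE from -0.55 to 0.99, so changes of that size in either direction were not resolved with 5 mice a group. Leaving out 1 mouse put it between 0.02 (CE mouse 10) and 0.75 (Control mouse 3).

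F13b was at 214, 229, 238, 187 and 214 CPM in Control mice 1 to 5, 190.3, 192, 169, 223 and 214 in CE mice 6 to 10, 194, 181, 194, 124 and 135 in Sirt2-/- mice 11 to 15 and 157, 200.2, 193, 197 and 204 in Sirt2-/-/CE mice 16 to 20. F13b, the carrier subunit of the factor that crosslinks fibrin, was -0.39 (log2, SE 0.14, adjusted p = 0.174) in Sirt2-/- against Control, and without mice 14 and 15 it was -0.19. F5, the cofactor of factor Xa, was 192 CPM in mouse 16 and 219 CPM in mouse 14, and 313 to 642 CPM in the others.

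**Figure D5:**
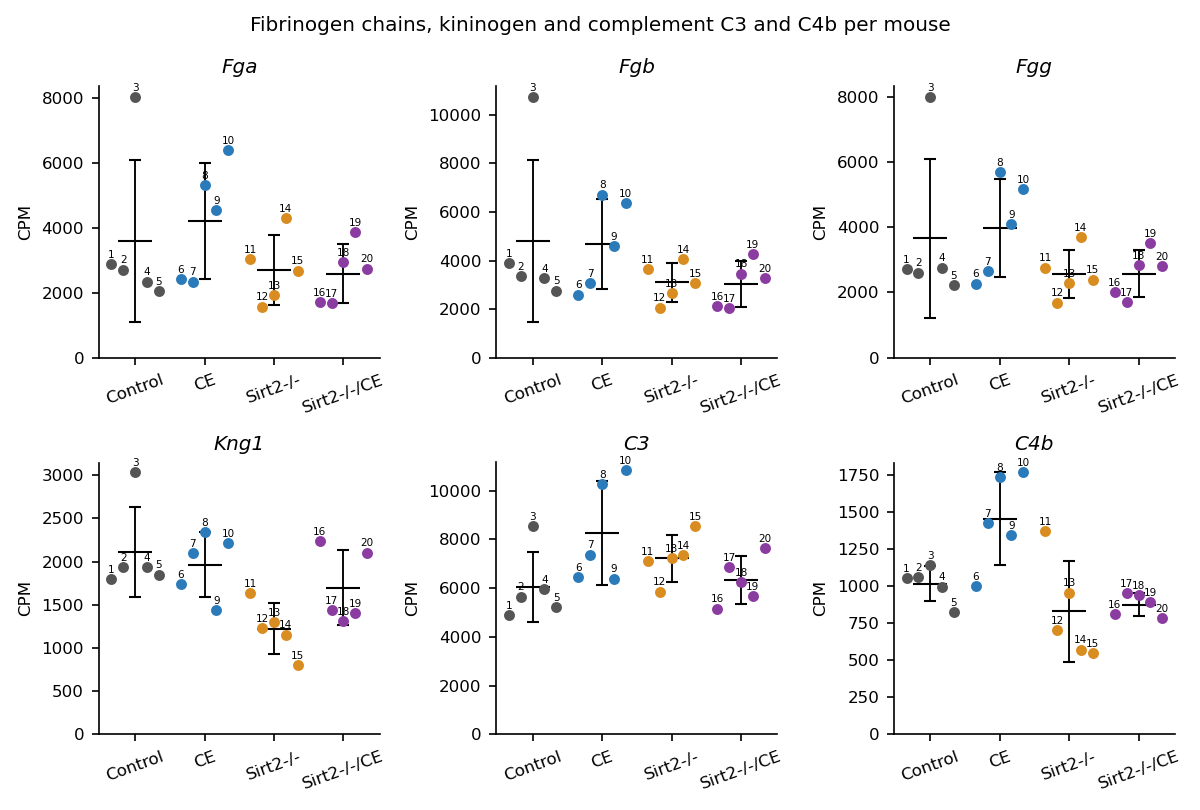
CPM of the fibrinogen chains, Kng1, C3 and C4b in each mouse (numbered points), with the mean and SD of 5 mice in black and axes from 0. Mouse 3 is the highest for each fibrinogen chain and Kng1, the Kng1 values of Sirt2-/- (804 to 1637 CPM) lie below those of Control (1796 to 3036 CPM), and C4b is highest in CE mice.

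Inhibitors and fibrinolysis genes all had lower estimates in the knockout at room temperature and in the cold (6 of 6 each, medians -0.25 and -0.29). With library size scaling 4 of 6 were lower at room temperature (median -0.11) and 6 of 6 in the cold (-0.20). Plg was at 1941, 2072, 2601, 2132 and 1907 CPM in Control mice 1 to 5, 1791, 2185, 2709, 2274 and 2525 in CE mice 6 to 10, 2022, 1508, 1967, 1794 and 1469 in Sirt2-/- mice 11 to 15 and 1822, 1671, 1912, 1932 and 1764 in Sirt2-/-/CE mice 16 to 20. Plg, plasminogen, was -0.31 (log2, SE 0.10, adjusted p = 0.177) for the knockout over both treatments, with 10 of 10 knockout mice below the wild-type mean, and the adjusted p was 0.0473 by DESeq2 and up to 0.564 over 30 alternatives. Cpb2 was at 269, 287, 409, 362 and 343 CPM in Control mice 1 to 5, 325, 432, 390.3, 404 and 442 in CE mice 6 to 10, 316, 269.7, 258, 259 and 218 in Sirt2-/- mice 11 to 15 and 324, 266, 316, 345 and 362 in Sirt2-/-/CE mice 16 to 20. Cpb2, a carboxypeptidase that protects fibrin from plasmin, was -0.32 (log2, SE 0.10, adjusted p = 0.162) in the same comparison, with 10 of 10 below, and 0.27 (log2, SE 0.10, adjusted p = 0.398) for cold over both genotypes. Vtn was at 1794, 1862, 2730, 2206 and 2031 CPM in Control mice 1 to 5, 2047, 2466, 3746, 2280 and 2855 in CE mice 6 to 10, 2053, 1806, 2280, 2657 and 1594 in Sirt2-/- mice 11 to 15 and 3017, 1793, 1884, 1987 and 2110 in Sirt2-/-/CE mice 16 to 20. Vtn, vitronectin, was 0.33 (log2, SE 0.19, adjusted p = 0.574) in CE against Control, CE mouse 8 was the highest (without it the estimate was 0.18), and all pairs of groups overlapped. Serpinc1, antithrombin, was -0.22 (log2, SE 0.12, adjusted p = 0.427) and -0.10 (log2, SE 0.12, adjusted p = 0.967) in the knockout comparisons, with intervals of 2 SE from -0.47 to 0.03 and from -0.35 to 0.15. Serpind1, heparin cofactor II, was -0.18 (log2, SE 0.12, adjusted p = 0.935) in the cold and Serpinf2, which inhibits plasmin, -0.39 (log2, SE 0.20, adjusted p = 0.381) at room temperature, or -0.20 without Control mouse 3.

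Other complement and clotting genes outside the 39 were read from lists of 27 and 24 genes, of which 24 and 23 were tested. EdgeR called 0 of either list in the 7 tests. For the knockout over both treatments, 9 other complement genes were higher and 6 lower at an unadjusted p under 0.05, against 8.01% and 5.82% of all genes. The 3 of lowest p were C4a at -0.76 (log2, SE 0.25, adjusted p = 0.186), C1s1 at -0.27 (log2, SE 0.09, adjusted p = 0.196) and Cd55, a membrane regulator that dissociates the C3 convertases, at 0.78 (log2, SE 0.29, adjusted p = 0.237). Among the 23 other clotting genes tested, 12 had higher and 11 lower estimates, and 4 were higher and 6 lower at an unadjusted p under 0.05. Tfpi and Thbd, inhibitors made by endothelial cells, were 0.75 (log2, SE 0.23, adjusted p = 0.174) and 0.81 (log2, SE 0.26, adjusted p = 0.177). Kng2 was -0.48 (log2, SE 0.15, adjusted p = 0.185). Of 11 regulator genes edgeR called 0. Stat3, which carries the interleukin-6 signal, was -0.61 (log2, SE 0.23, adjusted p = 0.257), or -0.33 without Control mouse 3.

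Acute-phase genes outside the members are given beside these values, and edgeR called 0 of 11 in each of the 4 comparisons of pairs. Of the 11, 11 had higher estimates in CE than Control (6 at an unadjusted p under 0.05, median 0.83) and 11 had lower ones in Sirt2-/-/CE than CE (all 11 under 0.05, median -1.14). In Sirt2-/- against Control 3 were higher and 8 lower (4 under 0.05, all lower, median -0.19). Over both treatments Saa1 and Saa2, serum amyloid A genes, were lower in the knockout, with log2 fold changes of -3.75 and -4.71 (edgeR adjusted p = 0.0353 and 0.0402). Without Control mouse 3 these were -2.37 and -2.65. When each of the 20 mice was left out in turn, Saa1 passed 8 times (adjusted p = 0.0172 to 0.09) and Saa2 7 times (adjusted p = 0.0184 to 0.0973). The summed level of the 11 was 6002 to 18560 CPM in Control, 8056 to 28230 in CE, 6652 to 13160 in Sirt2-/- and 6577 to 11900 in Sirt2-/-/CE. Mouse 3 had a score of 1.76 (the mean centred log2 CPM of the list) and CE mice 7 to 10 had 1.16, 2.11, 0.95 and 2.26, against -1.07 to -0.08 in the others. The part of this response in the members' levels was not tested.

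Endothelial markers had higher estimates in the knockout, 6 of 6 at an unadjusted p under 0.05 in Sirt2-/-/CE against CE (median 1.25) and over both treatments (median 0.77), none of them called. In Sirt2-/- against Control all 6 had higher estimates, with a median of 0.32 and none under 0.05. In CE against Control all 6 had lower ones, with a median of -0.70 and 2 under 0.05. Stellate cell markers had a median of -0.55 in CE against Control, with 4 of 6 lower and 0 under 0.05. In Sirt2-/-/CE against CE and over both treatments 5 of 6 were higher (medians 0.60 and 0.29), with 1 under 0.05 in each. In Sirt2-/- against Control 3 were higher and 3 lower (median -0.05). The summed endothelial level was 54.4 to 222 CPM in Control, 44.3 to 155 in CE, 92.5 to 255 in Sirt2-/- and 165 to 278 in Sirt2-/-/CE. Markers of Kupffer cells and leukocytes, 9 of 12 tested, had higher estimates for 7 in Sirt2-/-/CE against CE and over both treatments (medians 0.70 and 0.57). Of these, 4 and 5 were under 0.05, all higher. In Sirt2-/- against Control 7 were higher (median 0.37) and in CE against Control 3 (median -0.10), with 0 under 0.05 in both. Their summed levels were 105 to 335 CPM in Control, 98.3 to 376 in CE, 207 to 382 in Sirt2-/- and 268 to 430 in Sirt2-/-/CE. Hepatocyte markers had a median of -0.08 in Sirt2-/-/CE against CE and over both treatments, of 0.03 in Sirt2-/- against Control and of 0.17 in CE against Control. Of the 8, 1 was lower at an unadjusted p under 0.05 in each knockout comparison. The part of cell makeup in the members' values was not tested.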

How the data were processed

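Liver RNA of 20 mice was enriched on oligo(dT) beads and sequenced. The authors deposited 1 table with a read count per gene and mouse, not normalized, and an FPKM value per gene and mouse, scaled to length and depth. Per the labels the genome build was mm10. The aligner, the counting tool and its use of strand are not given in the sources used here. The 9 lines without a gene were left out.

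Counts were fitted in R 4.3.3 with edgeR 4.0.16 (filterByExpr over the groups, minimum count 10, TMM scaling, quasi-likelihood test), in 1 fit of 20 libraries, with Benjamini-Hochberg adjustment over 15616 genes and a threshold of 0.05. The 7 contrasts were the 4 pairs of groups, genotype over both treatments, cold over both genotypes and their interaction. Intervals are 2 SE. DESeq2 1.42.0 and limma 3.58.1 were alternatives, and FPKM was tested as log2(value + 1). No source says that the libraries of a group differ beyond being 1 mouse each.

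Members named with the value of each mouse were the 12 with the lowest unadjusted p and the most abundant of each role. Fga and Fgb, also given for each mouse, and F11, C6 and other members given in more detail were chosen after their values were seen. One gene of the clotting list is not reported here. Members, lists and tests were chosen with earlier results of these data known. Gene positions came from GENCODE M21, and near-identical copies were found with BLAST+ 2.17.0.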

Additional observations from a re-analysis of the deposited data

Results flagged for a closer look

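Among the 19 members that the rule gave with the value of each mouse, 76 groups of 5 mice were searched for a mouse whose gap to its nearest neighbour, on the log2 scale, was over Dixon's 95% critical share of the group's range, which chance gives in about 1 of 20 groups, and 4 groups held one, a share near chance. Fga and Fgb, chosen after their values were seen, were searched in 8 more groups, 2 of which held one, and they follow Fgg from mouse to mouse. Control mouse 3 stood above the other Control mice for Kng1 (3036 CPM, with the next at 1936 CPM, and a gap of 0.857 of the range), Cfi (859 CPM, the next at 608 CPM, 0.739) and the fibrinogen chains Fgg (7989 CPM, the next at 2763 CPM, 0.833), Fga (8011 CPM, the next at 2869 CPM, 0.753) and Fgb (10720 CPM, the next at 3893 CPM, 0.747). Mouse 16 stood below the other Sirt2-/-/CE mice for F13b (157 CPM, the next at 193 CPM, 0.785). The interaction of genotype and cold for F9 was -0.55 (log2, SE 0.20, unadjusted p = 0.0102, edgeR adjusted p = 0.457), and F9 is given here because each CE mouse was above the Control mean and each Sirt2-/-/CE mouse was below the Sirt2-/- mean.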

How the results depend on the processing

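No member was called by edgeR under any other scaling, filter, choice of groups, covariate or left-out library. DESeq2 called 1 member in Sirt2-/- against Control (3.85% of all genes) and 2 for genotype over both treatments (1.94%), and limma voom with sample weights called 2 in each (5.8% and 1.68%). The median log2 fold change of the members kept its sign in Sirt2-/- against Control (-0.34 to -0.20 when 1 mouse was left out), in Sirt2-/-/CE against CE (-0.32 to -0.25), for genotype (-0.33 to -0.22), in CE against Control (0.04 to 0.19) and for cold (0.08 to 0.18). It was 0.00 to 0.14 in Sirt2-/-/CE against Sirt2-/- and -0.11 to 0.03 for the interaction. Counts called were 0 in each of these. With 1 mouse left out, 10.3% to 17.5% of all genes had an unadjusted p under 0.05 in Sirt2-/- against Control, 4.83% to 7.13% in Sirt2-/-/CE against CE, 10.8% to 16.8% for genotype, 7.08% to 13.3% in CE against Control, 3.83% to 8.97% in Sirt2-/-/CE against Sirt2-/-, 7.57% to 10.9% for cold and 6.14% to 10.5% for the interaction. Leaving out mice 14 and 15, or mice 9, 14, 15 and 19, was added after seeing the data. The cause of these differences between settings was not tested. With 5 mice a group and no counted strand, small changes and reads shared with overlapping or near-identical genes were not resolved. No paired analysis was possible because the replicate numbers 1 to 20 are not shared between groups.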

Other observations

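Some members of 1 role differed from each other within a mouse, on the authors' FPKM scale. The ratio of C9 to C6 was 2.45 to 9, highest in mouse 20, and that of Mbl2 to Mbl1 was 1.40 to 4.46, also highest in mouse 20. F10 stood 3.69 to 6.19 times above its neighbour F7, and Cfb 6.62 to 11.5 times above its neighbour C2. C8a and C8b ran at a ratio of 0.662 to 1.37, lowest in mouse 14. Markers of platelets, 3 of 4 tested, had summed levels of 1.37 to 4.27 CPM over all mice. Cholangiocyte, stellate cell and erythrocyte markers had 0 of 5, 0 of 6 and 0 of 5 genes called for genotype over both treatments.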
